A study of Mus musculus with 6 samples.

Results

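Windows of 1 kb whose DNA methylation was clearly higher in every sample lacking Tet2 and Tet3 than in every wild-type sample were examined in mouse LSK cells. The windows were selected on their own methylation levels. An autosomal window had to list at least 3 CpGs and hold at least 20 reads in each of the 6 samples. Its lowest level among the knockout samples had to lie at least 20 percentage points above its highest wild-type level. This held for 1459 of 774732 tested windows, or 0.188%, and they are called gained windows below. The mirror rule, with every knockout sample at least 20 points below every wild-type sample, held for 9 windows, or 0.00116%. Because the levels chose the windows, the difference between genotypes inside them is a description and was not tested.

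LSK cells are the bone marrow fraction without lineage markers that carries Sca-1 and c-Kit, and it holds the blood stem cells and early multipotent progenitors. Methylation was read by whole-genome bisulfite sequencing in 3 wild-type samples (WT) and 3 samples from Tet2/3 double-knockout mice (DKO). The samples are labelled as biological replicates, with no word on separate animals or pooling. Information on age, strain and how the genes were deleted was not given in the sources used here. A read here means a call at one CpG, so a read that crosses several CpGs counts at each. The WT samples held 69344648 to 71261763 autosomal reads, 3.54 to 3.64 per listed CpG, and the DKO samples held 81865954 to 109637018, 4.18 to 5.6 per CpG. A level is the share of methylated reads in percent. The targeted genes were checked by windows that lost their reads in DKO, searched within 100 kb of each placed start. A window was picked if its share of autosomal reads was far lower in each DKO sample than in each WT sample. The low DKO read numbers in these windows thus follow from the choice. How many windows elsewhere in the genome lose their reads in this way was not counted. For Tet2 these were 4 of 127 windows searched. In these windows of chromosome 3 (133132001 to 133136000, mm9), 72.4 kb downstream of the placed Tet2 start, the WT samples held 109, 165 and 136 reads and each DKO sample 0. For Tet3 they were 3 of 182. In these windows of chromosome 6 (83352001 to 83355000), 37.7 kb downstream of the placed Tet3 start, the WT samples held 208, 231 and 169 reads and the DKO samples 14, 0 and 0.

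Most CpGs in mammalian cells carry 5-methylcytosine, set by DNA methyltransferases. CpG-rich promoters stay free of it, and active enhancers and other factor-bound elements form short dips of low or intermediate methylation. TET enzymes oxidise 5-methylcytosine, first to 5-hydroxymethylcytosine, and this is a route to its removal at such elements. Bisulfite sequencing reads both marks as methylated, so a level is their sum. Tet2 is among the genes most often mutated in myeloid disease and in clonal expansion of blood stem cells.

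Gene starts were placed on the CpG positions of the deposited table by the spacing of the CpGs in RefSeq promoter sequences (GRCm38.p6). Of 31396 autosomal promoters, 21004 of 17543 genes could be placed at 1 position, and 99.9% of neighbouring placed promoters stood in their annotated order. Promoters with fewer than 4 CpGs could not be placed, so a gene absent from what follows may be one of these. Of the 1459 gained windows, 25 held a placed start. In 7 of them a whole promoter of a gene with a curated mRNA lay inside the window, and the 3 whose windows had the widest gap between genotypes are shown here, a choice made after their values were seen, because their bases can be read beside the methylation of each CpG. They are the 250 bases before the start, 5' to 3' along the gene, with each CpG in capitals.

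Pbld1: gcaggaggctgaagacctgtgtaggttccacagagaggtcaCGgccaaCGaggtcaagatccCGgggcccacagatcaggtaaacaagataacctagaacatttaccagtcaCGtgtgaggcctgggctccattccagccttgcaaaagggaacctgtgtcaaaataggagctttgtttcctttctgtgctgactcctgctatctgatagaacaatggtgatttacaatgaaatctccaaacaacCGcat

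Nt5c2: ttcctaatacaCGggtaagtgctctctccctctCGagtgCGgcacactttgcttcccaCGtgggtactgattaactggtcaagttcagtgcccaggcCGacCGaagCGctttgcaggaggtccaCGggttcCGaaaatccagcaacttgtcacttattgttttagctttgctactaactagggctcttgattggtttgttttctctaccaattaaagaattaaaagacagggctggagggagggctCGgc

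Slc7a7: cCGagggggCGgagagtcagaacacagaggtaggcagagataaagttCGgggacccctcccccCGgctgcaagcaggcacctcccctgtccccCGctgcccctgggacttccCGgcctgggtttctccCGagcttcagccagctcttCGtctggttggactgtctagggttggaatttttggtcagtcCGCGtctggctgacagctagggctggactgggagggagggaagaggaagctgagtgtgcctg

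These promoters differ in how their CpGs are laid out. That of Pbld1, which encodes a protein with a phenazine biosynthesis-like domain, has 5 CpGs in the printed bases, 4 of them in the upstream part and 1 at base 246. It lies at chr10:63060463-63060762 on the plus strand of GRCm38.p6, and was placed at chr10:62523211-62523510 of the mm9 table. Over its 8 CpGs, start included, the WT samples were at 5.71%, 7.14% and 0.0% and the DKO samples at 43.9%, 59.7% and 50% (12 to 62 reads per sample). With the reads of each group pooled, 5 of these 8 CpGs had no methylated read in WT, and all 8 were higher in DKO. The CpG at base 49 had 0 of 12 WT reads methylated and 8 of 17 DKO reads, and the CpG at base 246, next to the start, had 1 of 18 and 10 of 13.

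The placed promoter of Nt5c2 inside a gained window has 10 CpGs, 9 of them within the upstream 132 bases. The gene encodes a cytosolic nucleotidase that breaks down purine nucleotides, and whether this is its main promoter was not examined. This promoter lies on the minus strand (chr19:46969519-46969818, GRCm38.p6; placed at chr19:47044009-47044308, mm9). Its WT samples were at 48.1%, 70% and 69.2% and its DKO samples at 97.2%, 88.8% and 84.6%, with 10 to 89 reads per sample. The CpGs of this promoter differed among themselves. At base 34 the pooled WT reads were 2 of 12 methylated and the DKO reads 12 of 12, and at base 59 they were 2 of 8 and 20 of 20. At base 247, beside the start, 11 of 12 WT reads were already methylated, against 15 of 16 in DKO.

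The promoter of Slc7a7, a subunit of a transporter for cationic amino acids, has 10 CpGs in the printed bases and lies on the minus strand (chr14:54417630-54417929, GRCm38.p6; placed at chr14:55036467-55036766, mm9). Its WT samples were at 42.6%, 8.82% and 35.3% and its DKO samples at 72.7%, 66.7% and 80.4%, with 3 to 54 reads per sample. At base 113 the pooled WT reads were 2 of 9 methylated and the DKO reads 12 of 12, and at base 64 they were 4 of 7 and 7 of 11. Single CpGs also went the other way. At base 263 of Slc7a7, past the start, 2 of 7 WT reads and 0 of 4 DKO reads were methylated, and at base 107 of Nt5c2 8 of 8 and 20 of 22. Single CpGs in these promoters rest on 3 to 25 pooled reads per group, and no CpG was tested. The 1 kb windows around these starts were at 27.1%, 20.6% and 19.3% in WT and 69.3%, 74% and 80% in DKO for Pbld1. For Nt5c2 they were at 36.9%, 40% and 46% and at 92.6%, 90.6% and 78.0%. For Slc7a7 they were at 46.5%, 36% and 43.3% and at 73.7%, 75.8% and 82.2%.

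Gained windows went from intermediate to high methylation. The 3 WT samples averaged 37.9% ± 0.536 over them and the 3 DKO samples 75% ± 0.917 (SD over samples), which lie 37.1 points apart, whereas all tested windows were at 83.5% ± 0.0923 and 85.2% ± 0.298, or 1.63 points apart. The median gained window was at 38.5%, 38.8% and 37.7% in the WT samples and at 77.8%, 78.1% and 76.4% in the DKO samples. The distance between the genotypes is set by the rule, and the medians of the samples within a genotype lay close together. The lowest DKO level in a gained window came from DKO replicate 1 in 33.0% of cases, from replicate 2 in 28.4% and from replicate 3 in 38.7%. The highest WT level came from WT replicates 1, 2 and 3 in 32.4%, 35.0% and 32.6%.

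**Figure D1:**
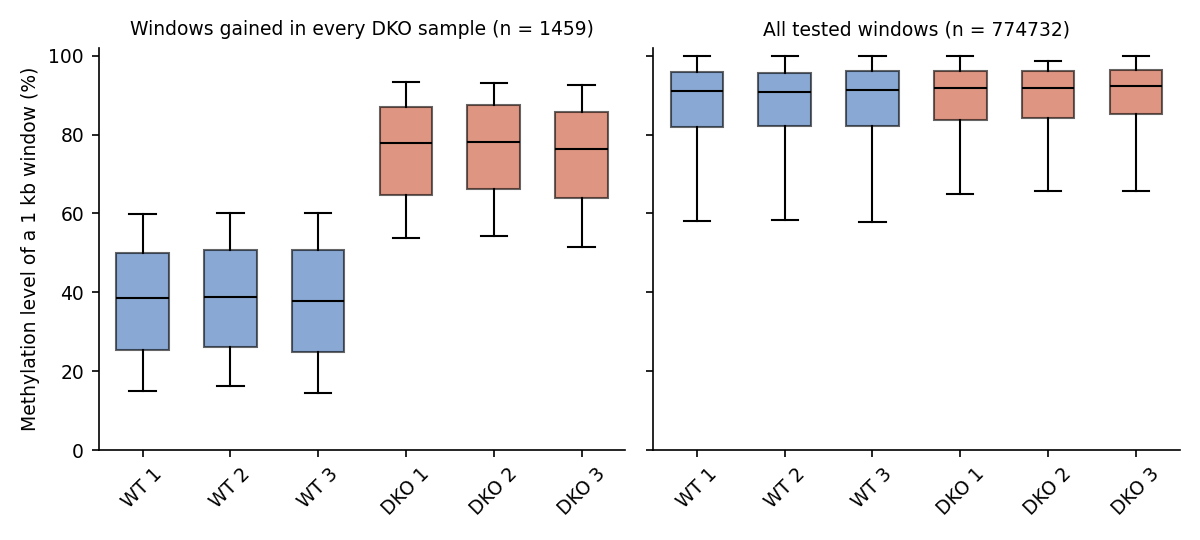
Methylation level of 1 kb windows in each sample (percent), for the 1459 gained windows on the left and all 774732 tested windows on the right; boxes span the quartiles with the median as a line, and whiskers the 10th to the 90th percentile. Gained windows had medians near 38% in WT and near 77% in DKO, a separation fixed by the rule, while all tested windows had medians of 90.9% to 92.3% in every sample.

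Within single windows the difference between group means ran from 20.8 to 66.7 points, with a median of 36.4. The gap between the lowest DKO and the highest WT level had a median of 24.2 points and reached 55.8. The 5 windows just inside had gaps of 20.0 points with WT means of 14.1% to 48.1%, and the 5 just outside had gaps of 19.96 to 20.0 with WT means of 34.2% to 59.8%. The samples of a genotype still differed within a window, by a median of 11.3 points between the lowest and highest WT sample and 9.59 points between the DKO samples. Over all tested windows these ranges were 8.96 and 8.0 points.

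The order of the samples in all tested windows gave the background for these counts. By any margin, all DKO samples were above all WT samples in 9.05% of tested windows, and below them in 3.75%. With the 20-point margin the counts were 1459 and 9. The 9 windows of the mirror rule lay on chromosomes 3, 7, 11, 12, 13, 14, 18 and 19, held 3 to 15 CpGs and had 20 to 108 reads. Of these, 7 had a WT mean of 80% or more, a class in which no gained window can lie because the rule leaves no room above it.

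The same measure was then read in samples that had not chosen the windows. For each of the 9 ways to set aside 1 WT and 1 DKO sample, windows were chosen by the 20-point rule on the other 4 samples, which gave 4529 to 5465 windows. In the choosing samples they differed by 33.4 to 34.4 points on average. In the samples set aside the mean difference was 16.2 to 18.9 points, from WT levels of 50.7% to 53.5% to DKO levels of 67.7% to 71.6%. The DKO sample set aside was higher in 82.9% to 85% of these windows, against 52.1% to 55.9% of all tested windows. It was at least 20 points higher in 40.5% to 46.9% of them, against 4.23% to 4.52% of all tested windows. That background is not matched for level. Of all tested windows, 80.2% were at 80% or more in WT, which leaves little or no room for a rise of 20 points. All tested windows at 50 to 60% in WT differed by 9.73 points on average. No background of matched level was drawn for the samples set aside. The direction was thus kept in most chosen windows, at a smaller size than in the samples that chose them. The 9 pairs share samples.

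Windows chosen by the mirror rule on 4 samples were fewer, 231 to 363, with a mean difference of -30 to -29.1 points in the choosing samples. In the samples set aside it was -0.768 to 1.98 points, and the DKO sample was the lower in 44.3% to 52.5% of the windows, against 41% to 44.7% of all tested windows. It was at least 20 points lower in 6.09% to 12.1% of them, against 1.15% to 1.99% of all tested windows. One sample against another allows no test of these values.

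Gained windows were concentrated where WT cells had intermediate methylation. The quartiles of their WT mean were 26.6%, 38.2% and 49.1%, while the median of all tested windows was 91.1%. Per 1000 tested windows of a class, 32.8 were gained among those at 30 to 40% in WT (316 of 9634) and 30.6 among those at 20 to 30% (266 of 8687). The rate was 2.03 per 1000 below 10% (47 of 23146), 13.9 at 50 to 60% and 4.6 at 60 to 70%. The class at 80% or more held 621277 tested windows, and the rule cannot choose one there. Without any choice by the rule, the mean difference over all tested windows was also widest in the middle classes, at 10.3 points for 40 to 50% and 1.97 points below 10%. Classes set on the WT level gather windows that were low in WT by counting error, and the part of this in the class differences was not tested. Gained windows ended at a median of 77.5% in DKO, with quartiles of 65.8% and 85.9%.

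**Figure D2:**
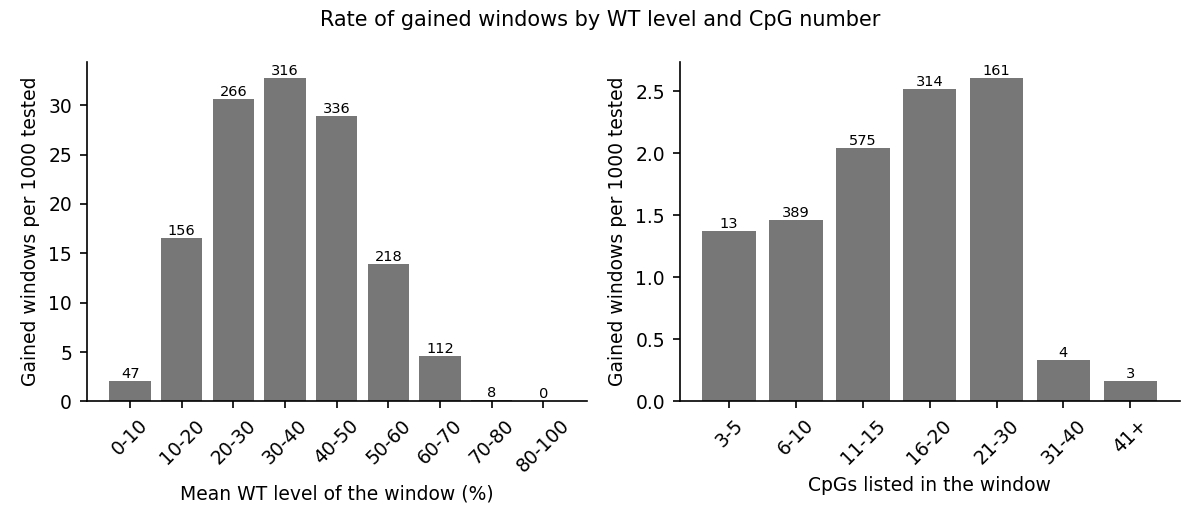
Gained windows per 1000 tested windows, by the mean WT level of the window (left, percent; each class leaves out its upper limit) and by the number of CpGs listed in the window (right); the number over each bar counts the gained windows. The rate peaked at 32.8 per 1000 for windows at 30 to 40% in WT, and by CpG number it was 2.61 per 1000 at 21 to 30 CpGs and 0.161 at 41 or more.

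CpG density of gained windows was close to that of all tested windows. Their median was 13 CpGs per kb, with quartiles of 10 and 17, against a median of 12 and quartiles of 9 and 16 for all tested windows. The rate of gained windows was 1.46 per 1000 at 6 to 10 CpGs, 2.04 at 11 to 15, 2.52 at 16 to 20 and 2.61 at 21 to 30. It was 0.33 at 31 to 40 CpGs and 0.161 at 41 or more, where 3 of 18618 windows were gained. Within windows at 10 to 50% in WT the rate went down with density, from 42.3 per 1000 at 3 to 10 CpGs and 34.2 at 11 to 20 to 11.4 at 21 to 40 and 0.768 above 40. Within windows at 50 to 80% it was 3.16, 3.97 and 4.51 per 1000 over the first of these classes, and 0 of 322 above 40 CpGs.

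Gained windows were also described by depth. They had a median of 34 reads in their shallowest sample, against 31 for all tested windows. The rate was 1.49 per 1000 for windows whose shallowest sample had 20 to 24 reads, 2.31 for 40 to 59 reads 2.93 for 60 to 99 and 0.596 for 100 or more. All 9 mirror windows had fewer than 40 reads in their shallowest sample. With at least 40 reads in every sample, 556 windows met the rule and 0 the mirror rule. Reads in gained windows made up 1160 ± 30.0 of every 1000000 autosomal reads in WT against 1140 ± 33.5 in DKO (SD, n = 3 each; ratio 0.985, two-sided exact permutation p = 0.6, where 3 against 3 cannot go below 0.1). A difference in read share was thus not detectable over these windows, and 1 of them had over 3 times the median depth per CpG.

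Gained windows lay closer together than a tested window lay to the nearest of them, yet most stood alone. Merged where at most 1 kb separated them, the 1459 windows formed 1437 stretches. Of these, 1418 were single windows, 16 held 2 and 3 held 3. A directly adjacent gained window was found beside 2.12% of gained windows and beside 0.24% of the other tested windows. The first share depended on the limits. It was 0.719% with at least 40 reads, 0.775% with a gap of 30 points, 7.06% with a gap of 10 points, 3.23% in windows shifted by 500 bp and 2.96% to 4.3% with 1 sample left out (4.3% without DKO replicate 3). Within 10 kb the shares were 9.05% and 2.16%, within 100 kb 34.1% and 16.8%, and within 500 kb 71.6% and 51.3%. The median distance to the nearest gained window was 202 kb from a gained window and 479 kb from another tested window. The ratio of the shares thus went from 8.85 at 1 kb to 1.4 at 500 kb. The other tested windows are not matched for level. Of all tested windows, 80.2% were at 80% or more in WT, a class with 0 gained windows. How closely windows of intermediate WT level lie to each other was not examined, so its part in these shares was not tested.

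**Figure D3:**
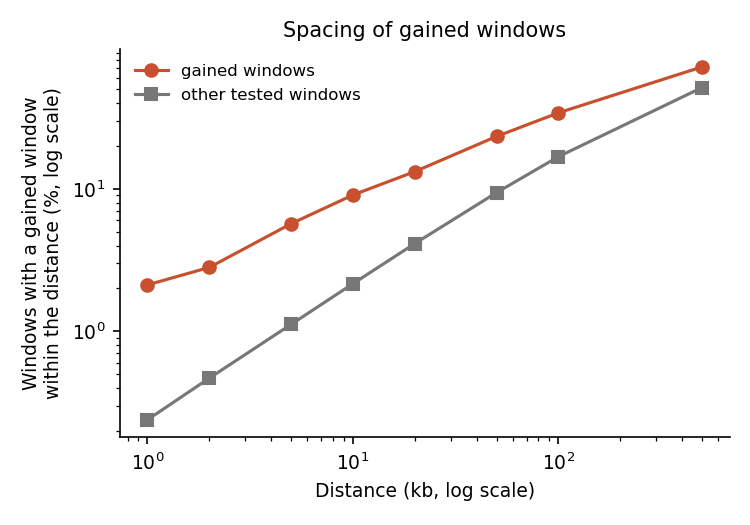
Share of windows with a gained window within a given distance (both axes on log scales), for the gained windows themselves and for the other 773273 tested windows, which are not matched for WT level. The shares were 2.12% against 0.24% at 1 kb and came closer with distance, to 71.6% against 51.3% at 500 kb; the 2.12% was 0.719% with at least 40 reads and 7.06% with a gap of 10 points.

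Megabases with many gained windows also held many tested windows. Of 2417 megabases, 1596 had none, with a mean of 241 tested windows each, and 29 had 5 or more, with a mean of 601. The fullest was chromosome 8, 129000001 to 130000000, with 8 gained among 563 tested windows, and 3 held 7 each: chromosome 11, 90000001 to 91000000 (420 tested) and 98000001 to 99000000 (638), and chromosome 17, 84000001 to 85000000 (644). The borders of the megabases are fixed, and the 8 gained windows near Gcnt2 on chromosome 13, described below, fell on both sides of a border. Among chromosomes, chromosome 11 had the highest rate at 2.85 per 1000 tested (141 of 49500), and chromosome 9 the lowest at 1.42 (62 of 43543). Chromosomes 17 and 19 followed chromosome 11 at 2.23 and 2.12 per 1000.

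The kilobases beside gained windows were also higher in DKO, by less. Tested windows 1 kb away that were not gained themselves were at 74.2%, 74.5% and 73.8% in the WT samples and at 81.5%, 81.4% and 80.9% in the DKO samples (1856 windows), a difference of 7.08 points. All 3 DKO samples lay above the WT samples there, and the spread within a genotype was 0.361 points (WT) and 0.328 points (DKO, SD, n = 3 each). At 2 kb the difference was 4.59 points, at 5 kb 3.92, at 10 kb 3.26 and at 100 kb 2.43. Over the other tested windows it was 1.56 points. The 3 DKO samples were all above the 3 WT samples in 24.9% of windows at 1 kb, 18.2% at 2 kb, 13.7% at 10 kb and 8.88% of the other tested windows. A gain of at least 10 points was seen in 30.4% of windows at 1 kb and 8.24% of the others. Reads that cross the border are shared with the gained window at 1 kb, but the windows from 2 kb on are a full window away. These values come from the same contrast as the rule and were not tested.

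**Figure D4:**
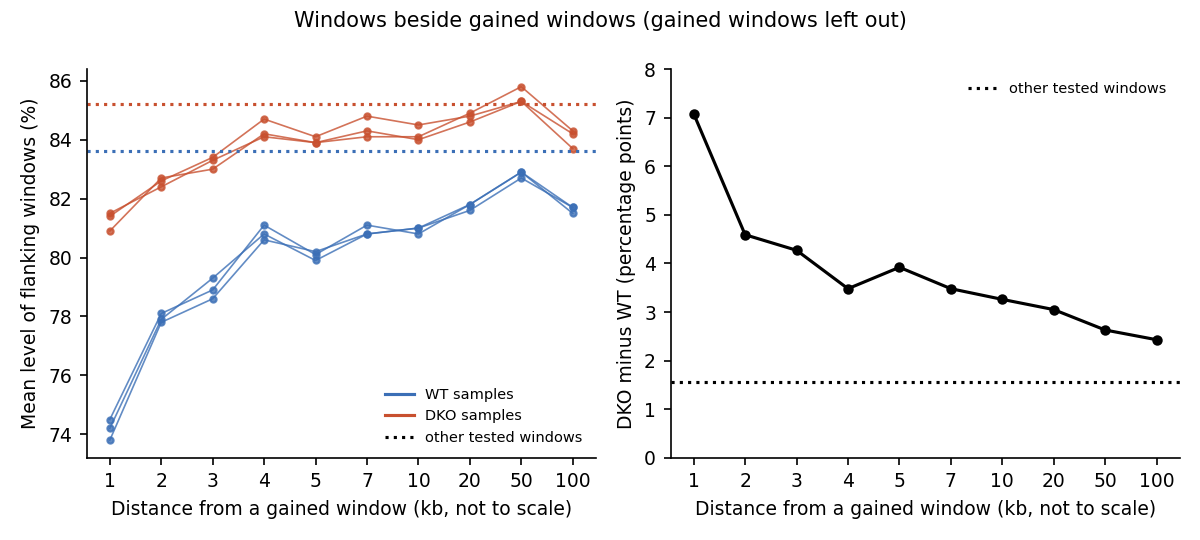
Mean methylation level of tested windows at a given distance from a gained window in each sample (left, percent) and the DKO minus WT difference (right, percentage points), with gained windows left out; dotted lines give the other tested windows. The difference went from 7.08 points at 1 kb to 2.43 points at 100 kb and stayed above the 1.56 points of the other tested windows, and at every distance drawn the DKO samples lay above the WT samples.

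The flanks were less methylated in WT than the other tested windows, so they were also compared at matched level. Within classes set by the mean of all 6 samples, flanking windows still differed more than the rest. At 1 kb and 50 to 80%, 361 flanking windows went from 60.5% to 75.9%, a difference of 15.5 points, against 6.04 points for other windows of that class. At 10 to 50% the difference was 13.7 points against 5.76, and at 80% or more 3.64 against 0.795. At 10 kb the same classes gave 9.72, 9.42 and 1.93 points in the flanks.

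The kilobases on both sides of a gained window could be read for 661 of the 1459. Of these 661, 498 (75.3%) were the least methylated of the 3 windows, and 308 (46.6%) had both neighbours at 70% or more. Among all tested windows at 10 to 50% in WT these shares were 51.6% and 25.3%. The median WT level was 85.2% 1 kb to the left, 36.9% in the gained window and 85.5% 1 kb to the right. In DKO the medians were 91.2%, 76.5% and 91.5%, so in DKO too the median of the gained windows lay below those of both neighbours. That it lay nearer to them than in WT follows from the rule. A neighbour below 20% in WT, as at the shore of an unmethylated island, was found beside 15% of gained windows and beside 42.3% of all windows at 10 to 50%.

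Most gained windows lay over 5 kb from the gene starts that could be placed. The share over 50 kb away was below that of all tested windows, but above that of tested windows at 10 to 50% in WT. A start lay inside 25 of them (1.71%, against 2.15% of tested windows), within 1 kb of 54 (3.7% against 3.09%) and 1 to 5 kb from 164 (11.2% against 8.22%). The 5 to 20 kb range held 409 (28.0% against 21.6%) and the 20 to 50 kb range 362 (24.8% against 22.0%). A further 445 (30.5% against 42.9%) were over 50 kb from any placed start. The rate was 1.5 per 1000 for windows with a start, 2.58 at 1 to 5 kb, 2.45 at 5 to 20 kb and 1.34 beyond 50 kb. Of the tested windows at 10 to 50% in WT, 7.69% held a start and a further 15.8% lay within 1 kb. Another 11.7% lay at 1 to 5 kb, 20.7% at 5 to 20 kb, 17.7% at 20 to 50 kb and 26.4% beyond. Against these windows, gained windows had smaller shares at a start and within 1 kb, and larger shares in each class beyond 5 kb. Over the 6 distance classes the gained windows had median differences of 36.0 to 37.3 points, median WT levels of 35.5% to 40.5% and medians of 12 to 16 CpGs.

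Most promoters near gained windows had little methylation in both genotypes, as had most other placed promoters. Over the 300 bases of 269 promoters with at least 20 reads per sample whose start lay within 10 kb of a gained window but not inside one, the WT samples averaged 7.41% ± 0.341 and the DKO samples 8.73% ± 0.194 (SD, n = 3 each), and 87.7% of them were below 10% in WT. For 11487 other promoters the averages were 8.29% ± 0.112 and 9.03% ± 0.105, and 88.0% of them were below 10% in WT. The differences were 1.32 and 0.736 points. Of the promoters with a start inside a gained window, 3 had that depth.

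Among stretches of several gained windows, the 3 longest lay on chromosome 13, and a pair of them was at Gcnt2, which encodes a glycosyltransferase that builds the branched I blood group antigen. The stretch at 40985001 to 40989000 (31 CpGs in its gained windows) was at 16.5%, 16.4% and 10.1% in WT and at 50.7%, 65.9% and 55% in DKO, and lay 2874 bp downstream of a placed Gcnt2 start. The stretch at 41014001 to 41017000 (43 CpGs), nearest to the predicted gene Gm31683 (863 bp upstream), was at 8.02%, 7.89% and 3.43% in WT and at 54.0%, 49.0% and 63.4% in DKO. In all, 8 gained windows lay within 50 kb of Gcnt2 starts, the most of any placed gene, and the same 8 lay within 50 kb of Gm31683. Their WT means ran from 5.72% to 35.9% and their DKO means from 45.8% to 79.6%, and 5 of the 8 began below 10%.

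The other stretch of 3 windows, chromosome 13 at 102460001 to 102464000, contained an internal start of Pik3r1, the regulatory subunit of phosphoinositide 3-kinase. It was at 11.6%, 21.9% and 4.27% in WT and at 49.7%, 75.3% and 51.3% in DKO (146 to 291 reads), with DKO replicate 2 well above the others. The promoter of the internal start, with 6 CpGs and 21 to 40 reads, was at 0.0%, 32.5% and 0.0% in WT and at 27.6%, 76.3% and 47.1% in DKO. The main CpG-rich Pik3r1 promoter, with 34 CpGs, was at 0.0% in every WT sample and at 0.0%, 4.29% and 0.0% in DKO. The 2-window stretch with the widest gap was on chromosome 11, 83462001 to 83464000, with no placed start within 50 kb. It was at 23.1%, 14.3% and 16.7% in WT and at 77.9%, 74.4% and 73.2% in DKO.

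Hlf, a transcription factor of the PAR bZIP family that marks blood stem cells, had 4 gained windows within 50 kb of its start, all on the downstream side. The pair at 90240001 to 90242000 on chromosome 11 was at 20.8%, 29.6% and 13.7% in WT and at 68.1%, 76.2% and 72.8% in DKO. The window at 90245001 to 90246000 was at 7.14%, 18% and 6.25% in WT and at 62.5%, 60.9% and 46.7% in DKO. The 30 CpGs of its placed promoter had no methylated read in any sample, with 2 to 55 reads each. Downstream of Gfi1, a zinc-finger repressor needed by stem cells and granulocytes, the stretch at chromosome 5, 108147001 to 108149000, was at 50%, 38.3% and 39.3% in WT and at 90%, 84.9% and 78.3% in DKO.

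The other 4 named stretches had WT means between 36.1% and 53.3%. Chromosome 2, 166273001 to 166275000, went from 53.3% ± 2.96 to 89.5% ± 3.59, and chromosome 8, 35911001 to 35913000, from 36.1% ± 0.667 to 84.7% ± 6.9 (SD, n = 3 each). Chromosome 15, 78341001 to 78343000, downstream of C1qtnf6, went from 45.2% ± 4.25 to 86.8% ± 2.86. Chromosome 1, 195163001 to 195166000, went from 40.1% ± 2.71 to 75.4% ± 3.16. In each of these the samples of a genotype stayed closer together than the genotypes. The rule sets the distance between the genotypes but not the spread within one.

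Among the 10 single windows with the widest gap and at least 40 reads in every sample, the first was chromosome 11, 70017001 to 70018000, 9412 bp upstream of Slc16a11, a monocarboxylate transporter family member. It was at 16.8%, 17.3% and 18.5% in WT and at 79.3%, 76% and 74.3% in DKO, with 75 to 145 reads. On chromosome 15, 27433001 to 27434000, downstream of the phosphate transport gene Ank, the levels were 23.3%, 22.1% and 8.33% in WT and 77.1%, 84.9% and 71.8% in DKO. Chromosome 3 held 3 of the 10. One lay 1863 bp downstream of the start of Mcoln2, a lysosomal cation channel, at 31.6% ± 2.79 in WT and 85.1% ± 4.05 in DKO, and one lay 4239 bp upstream of Plekho1, at 26.0% ± 2.1 and 77.9% ± 4.82 (SD, n = 3 each). The window with the largest difference of group means among the 10, 62.4 points, was at 37504001 to 37505000 on chromosome 3, with WT samples spread from 12.0% to 36.9%. Further windows lay on chromosome 5, 38516 bp downstream of the start of Kdm2b, a histone demethylase that binds CpG islands, and on chromosomes 9, 10 and 18.

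A window on chromosome 5, 148210001 to 148211000, also among these 10, lay 130 bp upstream of the start of the predicted gene Gm26597 and 1065 bp downstream of the start of Flt3, the receptor tyrosine kinase of early multipotent and lymphoid progenitors. It was at 47.1%, 33.7% and 28.1% in WT and at 89.4%, 90.4% and 94.4% in DKO (64 to 153 reads). The Flt3 promoter itself, with 18 CpGs, was at 1.41%, 3.9% and 0.0% in WT and at 0.0%, 7.76% and 0.0% in DKO. High methylation in DKO thus stood near 300 bases of promoter with levels of at most 7.76% in the 6 samples. The 1 kb window that holds this start had means of 5.69% in WT and 17.0% in DKO. The window between it and the gained window had means of 0.59% and 7.42%.

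Genes of blood cell identity were then taken from lists. The lists were drawn up with earlier results of these data known, and Hlf, Gfi1, Txnip and Pik3r1 among others had appeared in those results, so the counts support no statement on the lists. Of 26 stem cell and progenitor factors with a placed start, 6 had a gained window within 10 kb, as had 2 of 13 myeloid, 3 of 14 lymphoid and 1 of 11 cell cycle and tumour suppressor genes. None of 4 erythroid and megakaryocytic genes and none of the 9 genes of methylation enzymes and their partners had one. Over all placed genes it was 467 of 17543, or 2.66%. By tested windows within 10 kb of the starts, 9 of 403 were gained for stem cell factors and 393 of 170025 (0.231%) for all placed genes.

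**Figure D5:**
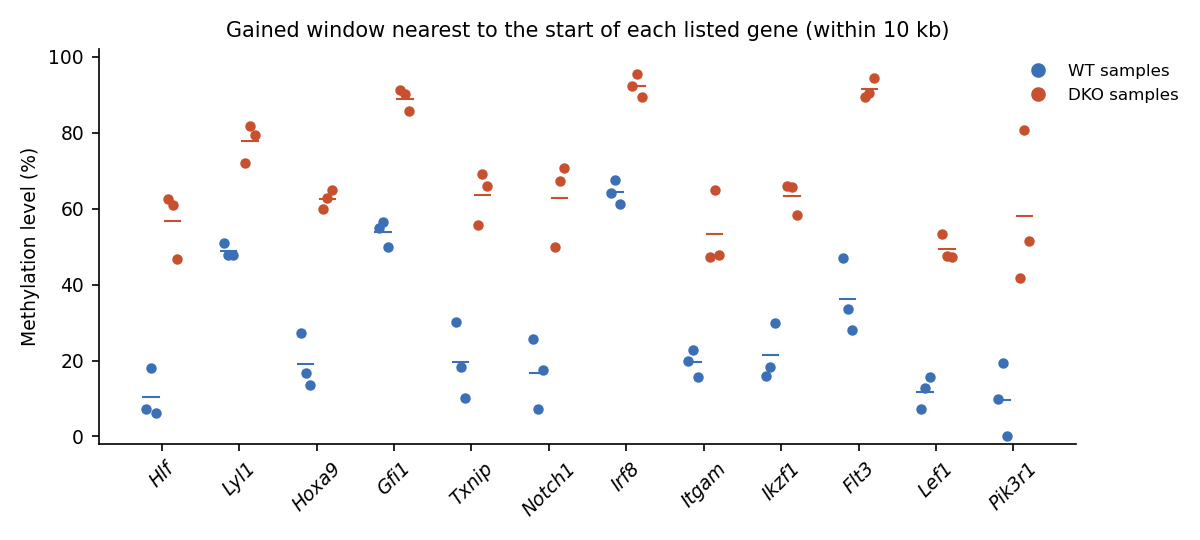
Methylation level (percent) of the gained window nearest to the start of each listed gene with one within 10 kb; points are the samples and lines the group means (n = 3 each). WT means ran from 9.73% (Pik3r1) to 64.3% (Irf8) and DKO means from 49.5% (Lef1) to 92.4% (Irf8), and the 2 genotypes do not overlap because the rule required it.

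Besides Hlf and Gfi1, the stem cell factors were Lyl1, Hoxa9, Txnip and Notch1. The window 7369 bp downstream of Hoxa9, a homeobox gene of stem and leukaemic cells, was at 27.3%, 16.7% and 13.6% in WT and at 60%, 62.7% and 64.9% in DKO. The placed Hoxa9 promoter had 4 CpGs and 4 to 23 reads, and was at 0.0% in every WT sample and at 13.0%, 27.3% and 14.3% in DKO. The window 4121 bp downstream of Txnip, which binds thioredoxin and restrains glucose uptake, was at 30.2%, 18.2% and 10.0% in WT and at 55.8%, 69.2% and 65.9% in DKO. The Txnip promoter was at 1.35% or less in every sample. The window downstream of Lyl1, a basic helix-loop-helix factor, was at 48.8% ± 1.79 and 77.8% ± 5.04, and that upstream of Notch1, a receptor of cell fate choice, at 16.8% ± 9.35 and 62.7% ± 11.1 (SD, n = 3 each).

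The myeloid genes were Irf8, a transcription factor of monocytes and dendritic cells, and Itgam, which encodes the integrin CD11b. The Irf8 window began high, at 64.1%, 67.6% and 61.3% in WT, and was at 92.3%, 95.5% and 89.3% in DKO. The Itgam window lay 3154 bp upstream and was at 20.0%, 22.9% and 15.6% in WT and at 47.2%, 64.9% and 47.9% in DKO. The lymphoid genes were Flt3, Ikzf1 and Lef1. The window 4073 bp downstream of a start of Ikzf1, the lymphoid regulator Ikaros, was at 16%, 18.3% and 29.9% in WT and at 66.1%, 65.7% and 58.4% in DKO. The window near an internal start of Lef1, a factor of Wnt signalling in lymphoid cells, was at 11.8% ± 4.33 and 49.5% ± 3.43 (SD, n = 3 each), the lowest DKO mean of these genes. A placed Lef1 promoter further upstream, with 21 CpGs, held 0 to 64 reads per sample. It was at 0.0%, 3.23% and 0.0% in WT and at 0.0%, 33.3% and 28.6% in DKO, where 0.0% can stand for a sample without reads.

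Of the 25 gained windows that held a placed start, one was at Rara, the retinoic acid receptor alpha gene of myeloid differentiation, on chromosome 11, 98801001 to 98802000. It was at 39.6%, 33.3% and 33.8% in WT and at 63.8%, 72.7% and 66.1% in DKO. The window at a start of Galnt6, which starts mucin-type glycosylation, was at 32.4%, 52.7% and 52.9% in WT and at 98.2%, 91.5% and 87.1% in DKO, and that of the phosphofructokinase gene Pfkm at 63.4% ± 3.46 and 88.9% ± 1.45 (SD, n = 3 each). Other starts in gained windows were those of Cd160, Sema4a and Slc27a1 and of many predicted or non-coding transcripts. Rara, Galnt6, Pfkm, Cd160, Sema4a and Slc27a1 were picked from the 25 after their values were seen.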

How the data were processed

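The authors deposited one table of whole-genome bisulfite sequencing giving, per CpG and sample, the counts of methylated reads and of total reads for 6 samples, neither normalised nor pooled. Alignment software BSMAP 2.74 and build mm9 appear per the submitters' processing notes. Whether reads were filtered, trimmed or freed of PCR duplicates was not given in the sources used here. Of 20451903 CpGs, 0 were repeated, and methylated reads exceeded the total in 0 of them. Coordinates are given from 1, taking the table's starts as counted from 0.

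Counts were summed over 1 kb windows (python 3.11.15, numpy 2.4.6, pandas 2.3.3). CpGs on one read are not independent, so counting error is larger than read numbers imply. On the mitochondrial genome 1.28% ± 0.0797 of WT reads and 1.71% ± 0.17 of DKO reads were called methylated (SD, n = 3). Promoters were placed where at least 80% of at least 4 CpGs of the 300 bases matched listed CpGs, no other CpG was listed among them, and the chromosome held 1 such place. No coordinate was converted. Alternatives were read and CpG minimums, the gap, window size and position, equal CpG weights, equal depth, high-copy windows, each sample left out and the replicate block. The rule and the placement were run on simulated data with known answers, as a check of the calculation. Its reads were drawn independently from a level shared by all samples, apart from windows raised on purpose. The simulation thus gives no error rate for the real windows. The members and lists were chosen with earlier results of these data known. Named were the 10 stretches with most gained windows (ties by the wider gap), the 10 single windows with the widest gap and at least 40 reads, the nearest placed start within 50 kb, and listed genes with a gained window within 10 kb of a placed start. Replicates are labelled biological. The exact permutation p is the share of 3 against 3 groupings of the 6 samples whose mean difference was at least that observed. Apart from this test of read shares, other divisions of the 6 samples into groups of 3 were not analysed here.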

Additional observations from a re-analysis of the deposited data

Results flagged for a closer look

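The X chromosome was outside the rule. By the same limits, 4 of its 3202 tested windows (0.125%) were gained in every DKO sample and 0 were lower. The window that began lowest was at 133526001 to 133527000 (mm9, 20 CpGs, 36 to 64 reads), where WT samples were at 2.7%, 26.2% and 8.33% and DKO samples at 51.6%, 56.2% and 50%. The other 3 windows began at 42.5% to 62.5% in the WT samples and were at 78.7% to 95.5% in DKO. The Y chromosome had 0 gained and 0 lower among 134 tested windows.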

How the results depend on the processing

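All alternatives were planned except the 40-read setting of the samples set aside, which was chosen after seeing the data. Against 1459 gained and 9 lower windows of 774732 tested, a 40-read minimum gave 556 and 0 of 239810 tested. A 10-point gap gave 7551 and 431, a 30-point gap 258 and 0, and 2 kb windows 489 gained of 805875 tested. A 10-read minimum gave 82 lower windows of 1369491 tested. Windows shifted by 500 bp gave 15, 500 bp windows 14 of 439691, the same CpG weights in all samples 5 of 498496 and thinning to equal depth 28. The numbers tested differ, so these counts cannot be compared as rates. Leaving out a sample gave 2349 to 3238 gained and 47 to 126 lower windows, more because fewer samples have to agree. Which windows qualify depends on the reads drawn: 988 of the 1459 met the rule after thinning, with 1453 still apart. With the same CpG weights 506 met it among 1030 with enough shared CpGs, 959 of them still apart.

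The 1 kb flank difference, 7.08 points, was 6.46 with 10 reads, 8.52 with 40 reads, 4.98 and 8.88 with gaps of 10 and 30 points, and 6.03 to 6.42 without a sample. The median WT level, 38.2%, was 39.5% with 10 reads, 51.3% and 32.4% with gaps of 10 and 30 points, 39.7% in shifted windows, 39.6% with the same CpG weights, 39.3% after thinning and 39.6% to 41.7% without a sample. The median CpG count, 13, was 11 with 10 reads, 17 with 40 reads and 10 with the same CpG weights, which list fewer CpGs. The share of gained windows beside another, 2.12%, was 0.719% with 40 reads, 7.06% and 0.775% with gaps of 10 and 30 points, 3.23% in shifted windows and 2.96% to 4.3% without a sample. The read share ratio, 0.985, was 0.95 to 1.01 without a sample, above 1 without WT replicate 2. Apart from the replicate block below, the other alternatives changed the counts of windows by under 1.5 times. They moved the flank difference and the median WT level by less than the SD between samples, and left the median CpG count at 13. With them the share beside another was 2.13% to 2.91%, highest with the same CpG weights. The read share ratio was 0.979 to 0.996. At 20 reads, 1 read is worth 5 points of a level, which limits what single windows show. In samples set aside, with 40 reads, the mean difference was 17.5 to 20.7 points.

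As a replicate block, with each DKO sample set against the WT sample of the same number, 3107 windows were gained and 49 lower, the flank difference was 6.28 points, the median WT level 41.8% and the share beside another 4.06%. The deviations of same-numbered samples from their group means correlated at 0.003 to 0.004 over windows, against -0.002 to -0.001 for other numbers. Each sample correlated best with its own number, a hint from the data, but every correlation was below 0.1 and no label ties the numbers, so the samples were not treated as paired.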
